A study of Mus musculus with 7 samples.

Results

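Interferon-induced genes and interferon regulatory factors (Irf genes) were examined in pancreatic islets of mice with a targeted Gata6 gene. The set holds 63 of the 22180 genes measured. It takes in all genes with a probe set of their own and a matching symbol. Matched were the Ifit, Ifitm, Ifi, Oas, Gbp, Isg and Mx families, Ifih1, Rsad2 and Usp18, the Irf factors and the signal transducer Stat2. A matching symbol does not show that a gene is induced by interferon. The 4 arrays labelled Gata6 KO were hybridised with islet RNA of the genotype Gata6 flox/flox;Pdx1-Cre, and the 3 control arrays with that of Gata6 flox/flox mice, so the floxed alleles are common to both groups. Pdx1-Cre is active in the pancreatic epithelium, so blood, vessel and connective tissue cells of the islets are not its target, and as the controls carry no Cre, an effect of Cre and one of Gata6 cannot be told apart. Each array held islets of 3 mice aged 2 months, isolated with collagenase and pooled, and the values are log2 signals of whole-transcript arrays.

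Interferons of type I act through a cell surface receptor and the Janus kinases Jak1 and Tyk2 on a complex of Stat factors and Irf9, which binds a DNA element called the interferon-stimulated response element. Interferon gamma acts through Jak1 and Jak2 on a Stat dimer that binds the gamma-activated site. The genes switched on include sensors of viral RNA, proteins that block entry, copying or translation of viruses, GTPases that attack vesicles holding microbes, and brakes such as Usp18. In islets this response is known from viral infection and from the autoimmune attack on beta cells, and immune and stromal cells of the islet express many of the same genes.

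Several facts of the whole series touch all results here. Gata6 itself had no lower signal under the label Gata6 KO, with 5.41, 5.35, 5.34 and 5.01 against 4.60, 4.80 and 4.83 on the control arrays (limma, adjusted p = 0.0622), and the sources used here do not say whether its probes lie in the deleted part, so directions below are those of the labels. Log2 differences are given as arrays labelled Gata6 KO minus control, and their median over all genes was 0.17, so that a small positive difference is common to most genes. Of 14 islet endocrine markers 13 fell, and the array labelled Gata6 KO 3 had the lowest mean of these markers (5.11, against 6.35 to 6.92 on the other arrays of its label and 8.38 to 8.95 on the control arrays). That array and control array 3 also had low Xist signals (2.15 and 1.34, against 5.02 or more on the others). Of 11 acinar markers 6 rose and 0 fell, and in bulk tissue fewer cells of a type and less RNA per cell cannot be told apart.

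The promoters of a few members are shown first, because they carry the letters by which interferon acts on many of these genes and because members with such letters did not move alike. The sequences are RefSeq's for build GRCm38.p6, 5′ to 3′ on the gene's strand, and end at the base before the transcription start, with positions counted back from -1. Capitals mark the response element core, searched on either strand as GAAA and GAAA with 2 bases between them, in Rsad2 (chr12:26456453-26456702, minus strand), Isg15 (chr4:156200819-156201068, minus strand) and Ifit1 (chr19:34640639-34640888, plus strand). In Irf8 (chr8:120736108-120736357, plus strand, the more upstream of 2 listed starts) they mark the gamma-activated site core, TTC and GAA with 3 bases between them. For Ifitm3 the first 30 transcribed bases are given (chr7:141010715-141010744, minus strand), with the response element core in capitals.
Rsad2: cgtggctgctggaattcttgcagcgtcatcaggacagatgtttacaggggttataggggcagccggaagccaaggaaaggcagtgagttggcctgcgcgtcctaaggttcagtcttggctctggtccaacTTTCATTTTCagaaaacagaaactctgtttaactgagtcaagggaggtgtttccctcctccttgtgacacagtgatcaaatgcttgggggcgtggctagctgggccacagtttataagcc
Irf8: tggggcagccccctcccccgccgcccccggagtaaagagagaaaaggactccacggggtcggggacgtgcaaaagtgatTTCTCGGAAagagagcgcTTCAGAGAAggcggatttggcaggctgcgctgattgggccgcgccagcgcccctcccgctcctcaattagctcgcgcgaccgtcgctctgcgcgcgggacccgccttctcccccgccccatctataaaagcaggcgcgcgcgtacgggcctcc
Isg15: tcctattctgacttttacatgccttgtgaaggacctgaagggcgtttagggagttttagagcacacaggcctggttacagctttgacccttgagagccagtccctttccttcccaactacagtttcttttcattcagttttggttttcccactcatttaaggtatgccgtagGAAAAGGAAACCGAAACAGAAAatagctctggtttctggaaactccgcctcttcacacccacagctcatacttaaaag
Ifit1: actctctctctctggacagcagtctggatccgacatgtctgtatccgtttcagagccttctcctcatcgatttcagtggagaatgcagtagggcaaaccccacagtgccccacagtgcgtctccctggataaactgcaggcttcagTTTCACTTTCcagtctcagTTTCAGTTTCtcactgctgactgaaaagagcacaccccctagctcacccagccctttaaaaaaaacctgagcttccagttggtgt
Ifitm3: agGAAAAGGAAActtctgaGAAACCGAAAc
Rsad2 held 1 response element core, from position -120 to -111. Isg15 held 3 that overlap, from -78 to -57, and Ifit1 held 2, at -104 to -95 and -85 to -76. Irf8 held gamma-activated site cores at -171 to -163 and -153 to -145 and no response element core in this window.

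Windows of 250 bases before to 50 after a start were found for 46 of the 63 members. The response element core was present for 24 of these 46 (52.2%), against 3.44% of all 32851 windows in the table and 3.99% of 27025 genes. The gamma-activated site core was present for 11 of them (23.9%), against 8.30% of all windows and 9.55% of genes. Of the 13 matched members that were higher on the arrays labelled Gata6 KO, 6 held the response element core (Gbp5, Ifi205, Ifi214, Ifitm3, Irf2 and Rsad2), while Ifi202b, Ifi209, Ifitm1, Ifitm10, Irf7, Irf8 and Oasl1 did not. It was also present for 18 of the 33 matched members that did not pass the test, Isg15, Ifit1, Ifit3, Oas3 and Stat2 among them. The windows of Ifit1 and Ifit1bl2 overlap and share their matches, and these matches describe letters, not binding.

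Of the 63 members, 17 were higher and 1 was lower on the arrays labelled Gata6 KO at a Benjamini-Hochberg adjusted p below 0.05 over all genes (limma). That is 27.0% higher and 1.59% lower, or 28.6% in all, against 17.4% higher and 7.36% lower, or 24.7% in all, among the genes tested. The median log2 difference was 0.34 over the members and 0.17 over all genes. The counts of calls depended on the scaling. The gap between both medians was 0.17 as deposited and 0.16 after a repeated quantile normalization. Centring takes 1 constant per array from every gene and so cannot change this gap. With the 40% of genes of lowest signal left out, the gap was 0.08 (medians of 0.28 over 24 members and 0.20 over all genes kept). With each array centred on its median, 5 members were higher (7.94%, against 8.43% of all genes) and 2 were lower (3.17%, against 12.5%), and the medians were 0.11 over the members and -0.06 over all genes. After a repeated quantile normalization 9 were higher (14.3%, against 11.0% of all genes) and 1 was lower (1.59%, against 11.2%), with medians of 0.18 and 0.02. The count of 18 was 10 without control array 1 (15.9%, against 14.7% of all genes), 9 without control array 2 (14.3%, against 16.2%) and 11 without control array 3 (17.5%, against 17.7%). On the 5 arrays of high Xist signal alone it was 11 (17.5%, against 15.0%), so calls among all genes were fewer in these settings too. Groups did not overlap for 17 members (27.0%, against 34.3% of all genes). In these 17 the arrays labelled Gata6 KO were higher (24.4% of all genes), and in 0 they were lower (9.96% of all genes).

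Most members had low signals. For 39 of the 63 the mean over the arrays was under 1.98, the level below which the lowest 40% of all genes lie, and 11 of the 18 called members were among them. Signals this low lie near the array's background, where a log2 difference is compressed, and no detection calls were used here. Of the 24 members above that level 6 were higher (25.0%, against 22.2% of the 13308 genes above it) and 1 was lower (4.17%, against 11.1%).

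**Figure D1:**
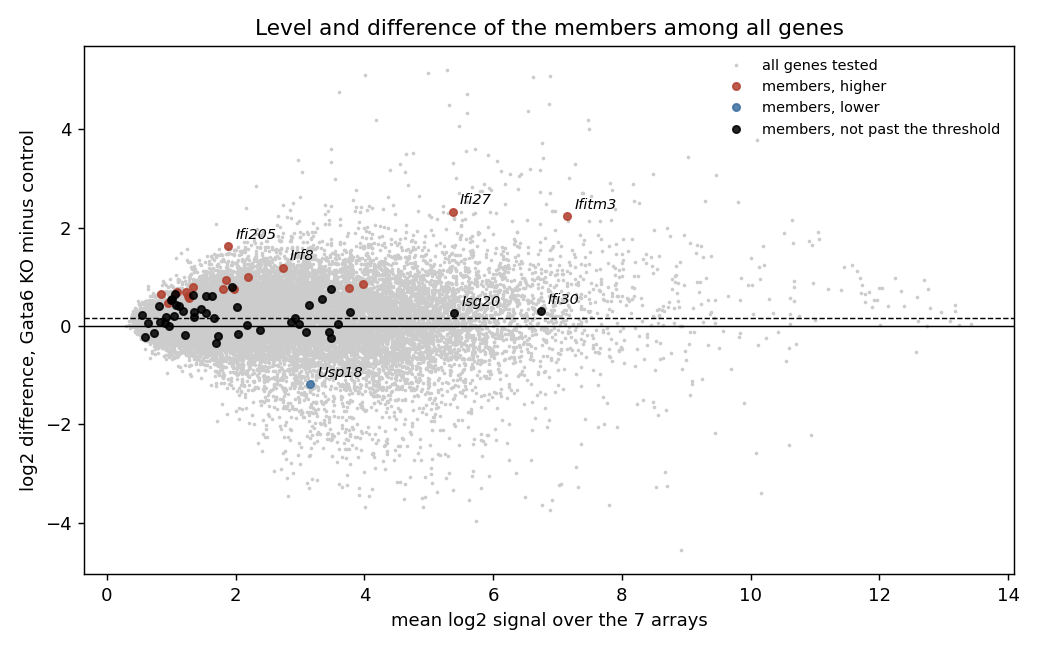
Each point is a gene, with its mean log2 signal over the 7 arrays on the horizontal axis and its log2 difference (arrays labelled Gata6 KO minus control) on the vertical axis; grey points are all genes tested, coloured and black points the 63 members, and the dashed line is the median of all genes (0.17). Most members sit at the left, at low signals, and Ifi27 and Ifitm3 stand above the rest at 2.33 and 2.24.

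The largest differences among the members were those of Ifi27 and Ifitm3. Ifi27, a small interferon-alpha-inducible membrane protein, measured 6.90, 6.45, 6.24 and 5.91 on the arrays labelled Gata6 KO, against 3.92, 3.87 and 4.33 on the control arrays. The groups lay over 1 log2 unit apart at their nearest arrays, and the log2 difference was 2.33 (SE 0.24, adjusted p = 2.02e-05 by limma), a 5.04-fold higher signal. Ifitm3, which blocks the fusion of viruses with endosomal membranes, measured 8.91, 7.86, 8.18 and 7.50 on the arrays labelled Gata6 KO, against 5.39, 5.52 and 6.69 on the control arrays. Its lowest value on the arrays labelled Gata6 KO lay above control array 3, the highest of the controls. The log2 difference of Ifitm3 was 2.24 (SE 0.34, adjusted p = 3.98e-04 by limma), or 4.74-fold. Both genes passed under each of the 16 other settings tried, and each reached the smallest exact permutation p that 35 splits allow (two-sided, p = 0.0286).

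The other members of these families had lower signals. Ifi27l2b was higher by 0.69 (SE 0.17), at 1.61, 1.15, 1.36 and 1.45 on the arrays labelled Gata6 KO against 0.60, 0.92 and 0.58 on the control arrays. This call was lost in 3 of 15 other settings, namely with centred arrays, on the arrays with high Xist and without control array 1. Of the 6 Ifitm genes, which lie in 1 cluster apart from Ifitm10, Ifitm1 rose by 0.57 (SE 0.20) and Ifitm10 by 0.75 (SE 0.20), and their groups did not overlap. Neither passed with centred arrays or after a repeated quantile normalization. Ifitm2, a close relative of Ifitm3 whose probes may cross-react with it, measured 2.64, 2.76, 2.51 and 4.04 on the arrays labelled Gata6 KO and 2.96, 3.13 and 2.38 on the control arrays (log2 difference 0.17, SE 0.34). It did not follow Ifitm3, since its high value was on array 4, where Ifitm3 was lowest among the arrays of that label. Ifitm5 and Ifitm6 also did not pass.

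**Figure D2:**
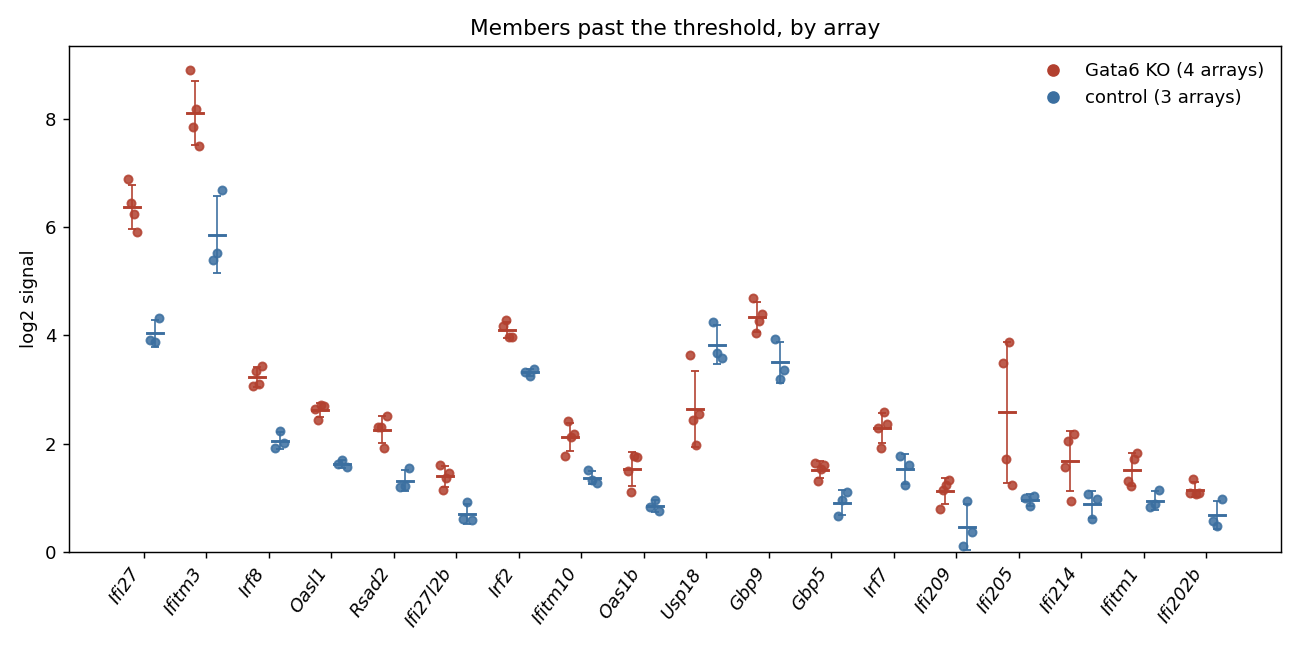
The log2 signal (vertical axis) of the 18 members past the threshold is plotted for each array, with arrays labelled Gata6 KO in red on the left of each pair and control arrays in blue on the right; bars show the mean and SD. Of these, 17 were higher on the arrays labelled Gata6 KO, and Usp18 was lower. Groups overlapped for Usp18, Ifi209 and Ifi214.

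Among the 7 Irf factors 3 were higher and 0 lower, beside 17.4% of all genes called higher and 7.36% lower. Irf8, a transcription factor of macrophage, dendritic cell and B cell development, measured 3.06, 3.35, 3.11 and 3.44 on the arrays labelled Gata6 KO, against 1.92, 2.23 and 2.02 on the control arrays. Both groups lay well apart, with a log2 difference of 1.19 (SE 0.21, adjusted p = 0.00111 by limma), and Irf8 passed under all 16 other settings. Irf2, which competes with Irf1 for the same sites, measured 4.18, 4.28, 3.98 and 3.97 on the arrays labelled Gata6 KO, against 3.33, 3.25 and 3.38 on the control arrays. Each group was tight, and the difference was 0.78 (SE 0.20, adjusted p = 0.0107 by limma), but it did not pass with centred arrays (adjusted p = 0.0759) or without control array 2. Irf7, the main inducer of type I interferon genes, had 2.28, 1.91, 2.59 and 2.36 on the arrays labelled Gata6 KO and 1.77, 1.23 and 1.61 on the control arrays, with a difference of 0.75 (SE 0.22) that was lost in 6 of 15 other settings.

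The remaining Irf factors did not pass. Irf9, the DNA-binding part of the type I response complex, measured 4.75, 3.66, 3.19 and 3.64 on the arrays labelled Gata6 KO, against 3.06, 2.71 and 3.37 on the control arrays. Array 1 labelled Gata6 KO stood highest and array 3 lay within the controls' range, and the difference was 0.76 (SE 0.32, adjusted p = 0.0938 by limma). Irf1, an early activator downstream of interferon gamma, had 3.21, 3.71, 3.17 and 3.23 on the arrays labelled Gata6 KO and 3.18, 2.68 and 2.84 on the control arrays (difference 0.43, SE 0.22). Irf4, a factor of lymphocytes, differed by 0.61 (SE 0.22, adjusted p = 0.0558 by limma). Irf3, which is activated by phosphorylation rather than by its level, had overlapping groups and a difference of 0.05 (SE 0.23), under the median of all genes.

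Usp18 was the only member called lower. It encodes the protease that removes Isg15 from proteins and holds back the type I interferon receptor, and it is itself strongly interferon-induced. Its signal was 3.63, 2.44, 1.97 and 2.55 on the arrays labelled Gata6 KO, against 4.24, 3.67 and 3.58 on the control arrays. Array 1 labelled Gata6 KO overlapped with the controls, and the log2 difference was -1.18 (SE 0.33, adjusted p = 0.0184 by limma). The exact two-sided permutation test gave p = 0.0857. The call was lost without control array 1 (difference -0.98, adjusted p = 0.101 by limma) and on the arrays with high Xist (adjusted p = 0.0712), and it held under both other scalings. Isg15, the ubiquitin-like protein that Usp18 removes, measured 1.23, 1.07, 1.50 and 1.23 on the arrays labelled Gata6 KO, against 0.70, 0.89 and 0.92 on the control arrays. These low signals did not overlap, but the difference of 0.42 (SE 0.16) did not pass (adjusted p = 0.0707 by limma). Stat2, which Usp18 binds at the receptor, had overlapping groups, with 3.63, 2.87, 2.26 and 3.39 on the arrays labelled Gata6 KO and 3.17, 3.28 and 3.06 on the control arrays (difference -0.13, SE 0.29).

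**Figure D3:**
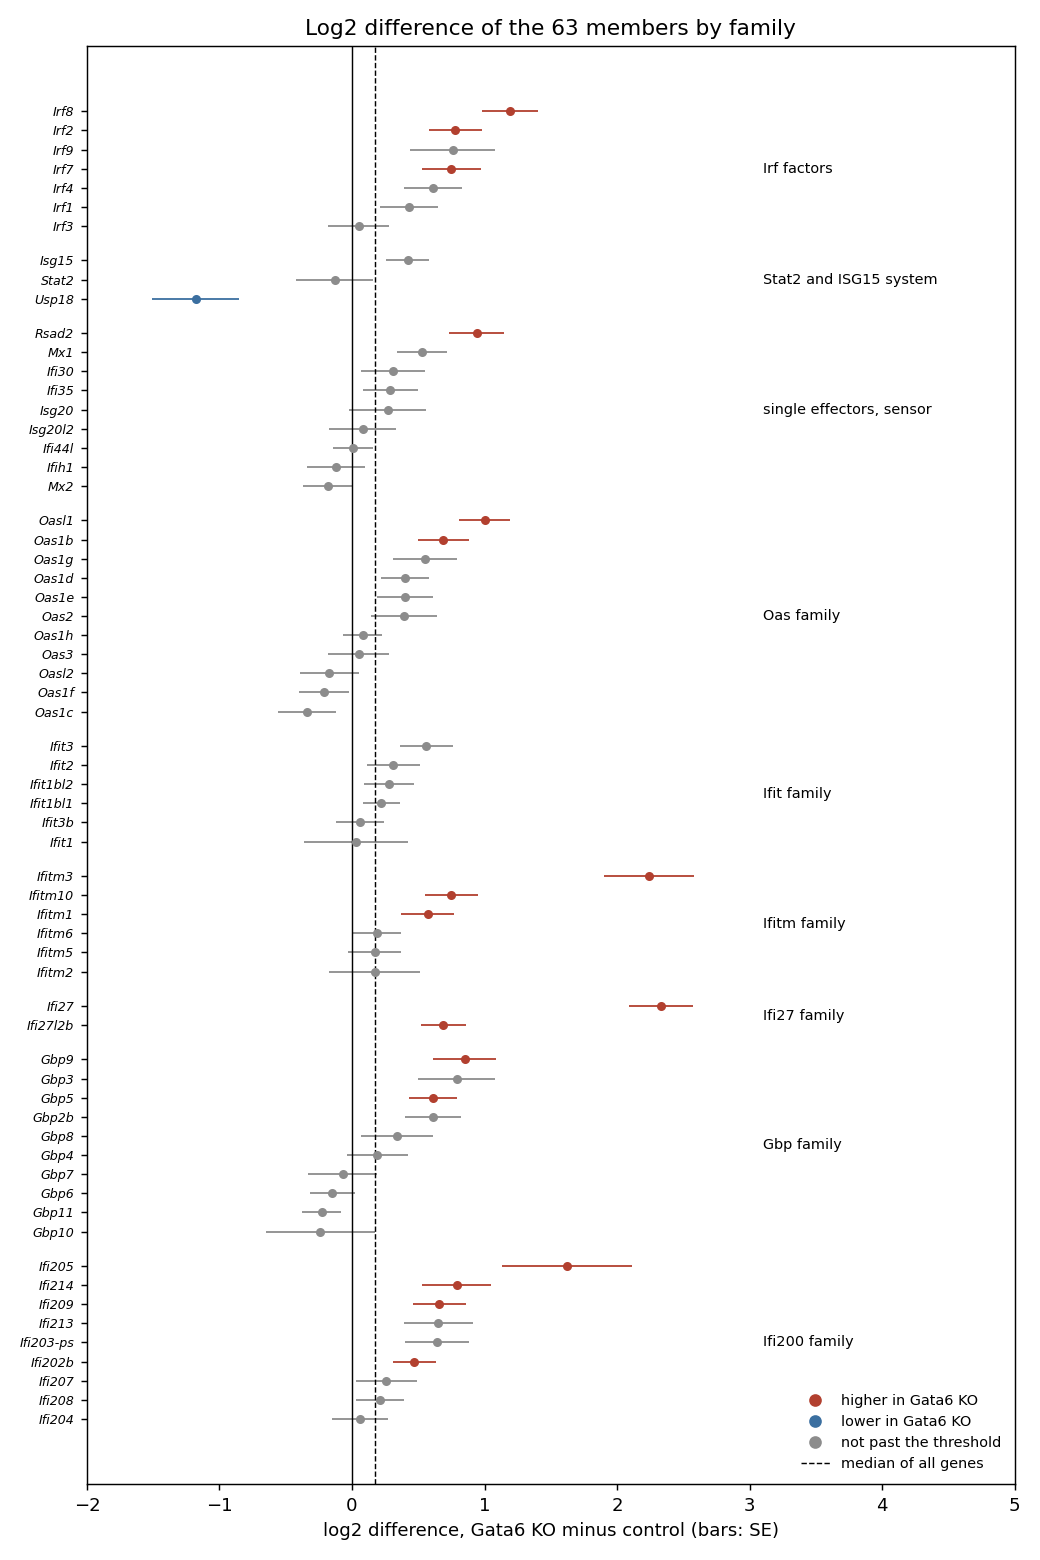
The log2 difference (horizontal axis, arrays labelled Gata6 KO minus control, bars show the SE) is plotted for each of the 63 members, grouped by family; red points were called higher, blue lower and grey did not pass, and the dashed line is the median of all genes (0.17). The 17 red points lie right of the dashed line, up to Ifi27 at 2.33, and the only blue point is Usp18 at -1.18.

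Among the 9 single effectors and sensors 1 was higher and 0 were lower, beside 17.4% of all genes called higher and 7.36% lower. Rsad2 (viperin), an enzyme that makes a chain-terminating nucleotide against viral polymerases, measured 2.30, 2.31, 1.92 and 2.51 on the arrays labelled Gata6 KO, against 1.20, 1.21 and 1.54 on the control arrays. The groups did not overlap, the difference was 0.94 (SE 0.21, adjusted p = 0.00483 by limma), and the call held in all 15 other settings in which Rsad2 was tested. The dynamin-like GTPases Mx1 and Mx2, which trap viral nucleoproteins, differed by 0.53 (SE 0.19, adjusted p = 0.0601 by limma) and -0.18 (SE 0.19), both at low signals. Ifih1, a sensor of long double-stranded RNA, measured 3.82, 3.43, 3.12 and 3.23 on the arrays labelled Gata6 KO and 3.52, 3.42 and 3.63 on the control arrays, with groups that overlapped. Isg20, an exonuclease of single-stranded RNA, Ifi35 and Ifi30, a thiol reductase of lysosomes, had differences of 0.27 (SE 0.29), 0.29 (SE 0.21) and 0.31 (SE 0.24), none of which passed.

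In the Oas family 2 of 11 members were higher and 0 lower, close to the 17.4% of all genes called higher (7.36% were lower). Only some members of this family make the second messenger that activates an RNA-degrading enzyme. Oasl1, which in mice holds back translation of Irf7 mRNA, measured 2.64, 2.44, 2.72 and 2.69 on the arrays labelled Gata6 KO, against 1.62, 1.70 and 1.56 on the control arrays. All arrays of one group lay above those of the other by a margin wider than the spread within either, with a difference of 1.00 (SE 0.19, adjusted p = 0.00228 by limma) that passed under all 16 other settings. Oas1b, known for resistance of mice to flaviviruses, was higher by 0.69 (SE 0.19) at signals under 2, and this call was lost with centred arrays. Oasl2, the paralog of Oasl1, differed by -0.17 (SE 0.22), Oas2 by 0.39 (SE 0.25) and Oas3 by 0.05 (SE 0.23), none of them past the threshold. The Oas1 genes are near-identical copies that probes may share, so their single values are uncertain.

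Of the 6 Ifit genes, whose proteins bind foreign RNA caps and ends, 0 passed the test in either direction, beside 24.7% of all genes. The count was also 0 with centred arrays and after a repeated quantile normalization. At an unadjusted p under 0.05 only Ifit3 differed. It measured 3.38, 3.66, 3.69 and 3.60 on the arrays labelled Gata6 KO, against 2.99, 3.18 and 2.88 on the control arrays. These did not overlap, yet the difference of 0.56 (SE 0.20) stayed above the threshold (adjusted p = 0.0558 by limma), which it passed in 4 of 16 other settings. Ifit1 was spread widely, at 2.36, 3.29, 1.32 and 1.80 on the arrays labelled Gata6 KO and 2.65, 2.36 and 1.48 on the control arrays, and its difference of 0.03 (SE 0.39) was far smaller than its error.

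**Figure D4:**
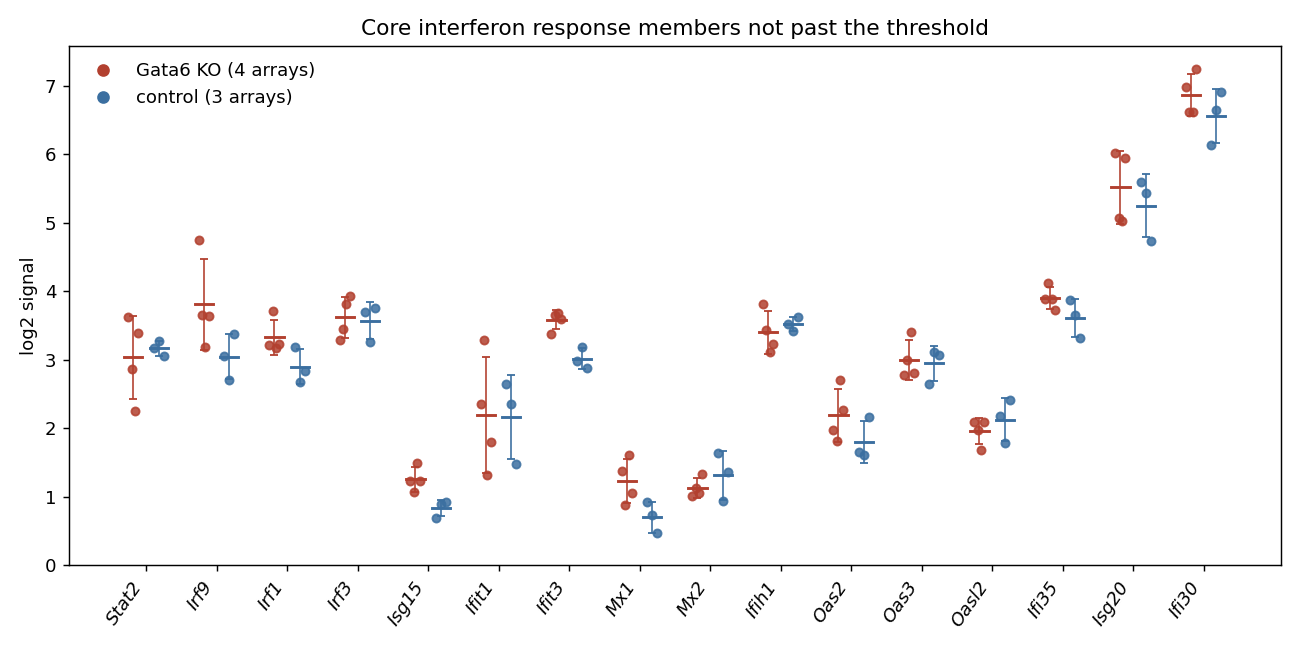
The log2 signal (vertical axis) of 16 members of the core response that did not pass the threshold is plotted for each array, with arrays labelled Gata6 KO in red on the left of each pair and control arrays in blue on the right; bars show the mean and SD. Groups overlap for all of them except Isg15 and Ifit3.

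The guanylate-binding proteins (Gbp genes) are GTPases induced mainly by interferon gamma that assemble on pathogen membranes. Of 10 members 2 were higher and 0 lower, close to the 17.4% of all genes called higher (7.36% were lower). Gbp9 measured 4.70, 4.04, 4.26 and 4.39 on the arrays labelled Gata6 KO, against 3.93, 3.20 and 3.37 on the control arrays. Its lowest value on the arrays labelled Gata6 KO lay only slightly above control array 1, and the difference was 0.85 (SE 0.24, adjusted p = 0.0191 by limma). Gbp5, an activator of inflammasomes, was higher by 0.61 (SE 0.18) at signals under 2. Both calls were lost with centred arrays, where Gbp11 was instead called lower (-0.45, adjusted p = 0.0391 by limma), a gene with a mean signal of 0.60 that is named because it was the only change of that kind. Gbp3 (0.79, SE 0.29) and Gbp2b (0.61, SE 0.21) did not pass, and Gbp10 had widely spread, overlapping groups with a difference of -0.24 (SE 0.41). Gbp genes also have close copies that probes may share.

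The Ifi200 family of nuclear DNA-binding proteins had 4 of 9 members higher and 0 lower, all at low signals. Among all genes 17.4% were called higher and 7.36% lower. Ifi205 had 3.49, 1.71, 3.88 and 1.24 on the arrays labelled Gata6 KO, against 0.99, 0.84 and 1.04 on the control arrays. Arrays 1 and 3 labelled Gata6 KO stood far above the rest while arrays 2 and 4 lay near the controls, so the difference of 1.62 (SE 0.49, adjusted p = 0.0278 by limma) is that of an uneven group. Ifi214 (0.79, SE 0.26), Ifi209 (0.66, SE 0.20) and Ifi202b (0.47, SE 0.16), which inhibits the DNA sensor Aim2, had means under 2 in both groups. Groups overlapped for Ifi214 and Ifi209, where the exact two-sided permutation test gave p = 0.114 and p = 0.0857. None of these 4 calls held with centred arrays or after a repeated quantile normalization, and the genes lie side by side as copies of one another.

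Other genes of the pathway were counted from lists chosen for their roles. Of 19 interferon genes 2 were higher and 1 lower: Ifnb1 by 0.54 (SE 0.17), with low signals in both groups, Ifna15 by 0.74 (SE 0.24) and Ifna14 by -0.83 (SE 0.26). The alpha interferon genes are near-identical, and these 3 calls were lost in 5 to 8 of the other settings. Of 9 receptor and Janus kinase genes 2 were higher and 0 lower, the receptor chain Ifnar2 by 0.65 (SE 0.22) and Jak2 by 0.63 (SE 0.21), neither with centred arrays. These shares, and those of the further lists below, stand beside 17.4% of all genes called higher and 7.36% lower.

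Sensors and adaptors had 5 of 15 genes higher and 0 lower. Tlr9, an endosomal receptor of unmethylated DNA, measured 3.19, 2.90, 3.26 and 3.58 on the arrays labelled Gata6 KO, against 1.58, 1.67 and 1.22 on the control arrays. The difference of 1.74 (SE 0.23, adjusted p = 1.11e-04 by limma) passed under all 16 other settings, as did that of Dhx58, a regulator of RNA sensing (0.85, SE 0.20). Tlr3, a receptor of double-stranded RNA, was higher by 0.68 (SE 0.21), but not with centred arrays. Of 10 negative regulators 0 were higher and 1 was lower, Socs3, an inhibitor of Janus kinases, with 3.48, 3.61, 3.92 and 3.86 on the arrays labelled Gata6 KO against 4.60, 5.08 and 4.98 on the control arrays. Its difference of -1.17 (SE 0.21) did not pass when both probe sets of the gene were averaged (adjusted p = 0.282 by limma). The dimmer probe set ran the other way, at 1.06, 1.50, 1.21 and 1.59 on the arrays labelled Gata6 KO against 0.71, 0.96 and 0.73 on the control arrays.

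Of 32 other interferon-induced effectors 9 were higher and 2 lower. Bst2 (tetherin), which holds budding viruses at the cell surface, measured 6.22, 5.37, 5.40 and 4.80 on the arrays labelled Gata6 KO, against 3.39, 3.72 and 4.39 on the control arrays, a difference of 1.61 (SE 0.31). Trim34a, which has near-identical copies, was higher by 1.70 (SE 0.22), and Lgals3bp, a secreted galectin-binding protein, was lower by 1.45 on the log2 scale (difference -1.45, SE 0.24). All 3 passed under each of the 16 other settings. Of 3 immunity-related GTPases Igtp was higher by 0.60 (SE 0.20), a call lost with centred arrays.

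Markers of other cell types moved on the same arrays. Of 15 macrophage markers 9 were higher and 0 lower. The 6 not called did not move alike. Csf1r, C1qa and C1qb differed by -0.11, -0.15 and -0.24, and C1qc, Adgre1 and Cd68 by 0.34, 0.35 and 0.38. The sum of the linear signals of all 15 ranged from 125 to 312 on the arrays labelled Gata6 KO and from 92.5 to 119 on the control arrays. Lyz2 was the brightest of them on array 1 labelled Gata6 KO (6.78). For 11 T and NK cell markers (5 higher, 0 lower) the sums ranged from 53.4 to 70.8 and, on the control arrays, from 34.4 to 35.2. Of 3 pan-leukocyte genes 1 was higher, Coro1a, with 3.63, 3.78, 4.74 and 4.06 on the arrays labelled Gata6 KO and 2.93, 3.28 and 2.51 on the control arrays (difference 1.15, adjusted p = 0.0089 by limma). Another, Ptprc, had 3.84, 2.18, 2.07 and 1.91 on the arrays labelled Gata6 KO and 2.08, 1.40 and 1.59 on the control arrays, a difference that did not pass, and neither did that of Laptm5 (0.51, SE 0.46). Log2 signals have no true zero, so no marker could be called absent. B cell (2 of 5 higher) and dendritic cell markers (1 of 6 higher) had sums of 127 to 225 and 175 to 408 on the arrays labelled Gata6 KO, overlapping with 51.4 to 200 and 154 to 226 on the control arrays. The bright genes Ighm and Cd209a weigh most in these sums, and the mean log2 signals did not overlap. For B cell markers that mean was 3.32 to 4.18 on the arrays labelled Gata6 KO and 2.43 to 3.06 on the control arrays, and for dendritic cell markers 3.05 to 3.54 and, on the control arrays, 2.67 to 2.79. Of 8 mesenchymal markers 6 were higher and 0 lower, with sums of 119 to 574 on the arrays labelled Gata6 KO and 71.1 to 166 on the control arrays. Of 9 endothelial markers 0 were higher and 4 lower (Esm1, Flt1, Kdr and Plvap), with sums of 148 to 341 against 377 to 534. Of the 5 not called, Eng and Emcn differed by -0.68 and -0.47, and Pecam1, Tek and Cdh5 by 0.52, 0.37 and 0.02. Of 4 ductal markers 1 was lower.

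Side by side with these lists, Ifitm3 had the same order of arrays within each label as the mean log2 signal of the mesenchymal markers. That mean was 5.60, 4.66, 4.71 and 3.59 on the arrays labelled Gata6 KO and 2.89, 3.22 and 3.74 on the control arrays. Ifi27 did not have this order, as arrays 2 and 3 labelled Gata6 KO and control arrays 1 and 2 stood the other way round. Such matches were not counted over the other members and lists. Array 4 labelled Gata6 KO lay below control array 3 in the mesenchymal mean, whereas its Ifitm3 signal (7.50) and its Ifi27 signal (5.91) lay above those of control array 3 (6.69 and 4.33). The macrophage mean was 3.86, 3.37, 3.02 and 2.95 on the arrays labelled Gata6 KO and 2.59, 2.33 and 2.45 on the control arrays. Irf8 was highest on array 4 labelled Gata6 KO, where the macrophage mean was lowest within the label and the dendritic cell mean highest. That order was not shared by the second probe set of Irf8, which was lowest on array 4 within the label (1.82, against 2.43, 2.22 and 2.43). The dendritic cell mean was 3.46, 3.05, 3.21 and 3.54 on the arrays labelled Gata6 KO and 2.76, 2.67 and 2.79 on the control arrays. The part of these cell types in the members' differences was not tested.

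**Figure D5:**
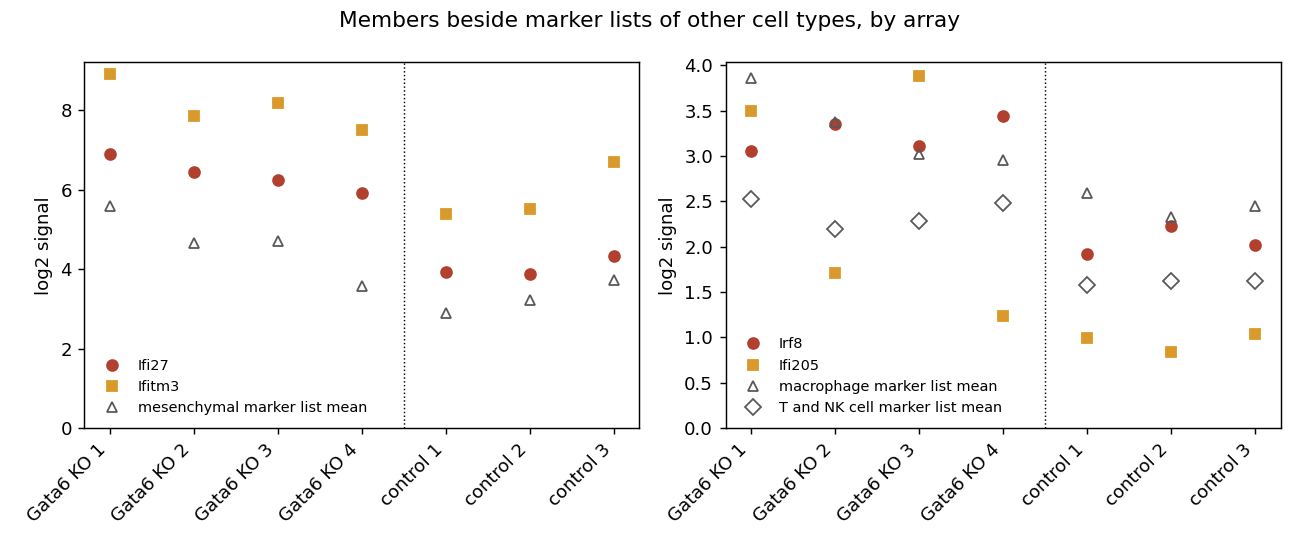
Log2 signals (vertical axes) are plotted by array, with the 4 arrays labelled Gata6 KO left of the dotted line and the 3 control arrays right of it; the left panel shows Ifi27 and Ifitm3 with the mean of the mesenchymal markers, the right panel Irf8 and Ifi205 with the means of the macrophage and the T and NK cell markers. Ifitm3 and the mesenchymal mean have the same order within each label, while Ifi27 does not share it. The mesenchymal mean of array 4 labelled Gata6 KO (3.59) lies below that of control array 3 (3.74).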

How the data were processed

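Gene expression was measured on 7 arrays, 4 labelled Gata6 KO and 3 control, grouped by their titles. The deposited values are log2 signals that the authors made with RMA, which corrects the background, normalizes quantiles and summarises probes, per the submitters' processing notes, which also name Transcriptome Analysis Console. Base 2 is taken from RMA, and versions and the genome build are not given in the sources used here. Array medians over all 41345 probe sets still differed (1.89 to 2.11 on the arrays labelled Gata6 KO, 1.72 to 1.78 on the control arrays). The platform annotation gave the symbols. Probe sets with 1 symbol were kept (23521), and the one with the highest mean over the arrays stood for its gene. A further 9 probe sets that list a matching symbol among several were not used.

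All 22180 genes were compared in R 4.3.3 by limma 3.58.1 (lmFit, eBayes with a mean-variance trend, no covariate), with Benjamini-Hochberg adjustment over all genes and a threshold of 0.05. SEs are moderated. The replicates are separate pools of mice, and the number of arrays limits the precision. Per-array values are given for members past the threshold or with a core role, other members by range or count, and pathway genes past the threshold with the 3 smallest p per list. The fit was tested on simulated data that kept each gene's mean and spread: of 100 genes changed by 1 log2 unit 44% were recovered, and of 100 changed by 2, 94%. Only these genes were changed there, while 5486 were called in the data, so the adjustment was stricter in the simulation. The shares recovered are therefore not those of the real comparison. Members and lists were chosen with earlier results of these data known. Promoter windows came from RefSeq (GRCm38.p6), matched by gene identifier. Figures were drawn with matplotlib 3.10.9.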

Additional observations from a re-analysis of the deposited data

Results flagged for a closer look

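In 3 of the 63 members, 1 array labelled Gata6 KO lay far from the other 3, by Dixon's criterion for groups of 4. Ifi202b was 1.35 on array 2, against 1.07, 1.08 and 1.08 on arrays 3, 4 and 1, all low signals. Irf1 was 3.71 on array 2, against 3.17 to 3.23 on the others. Ifitm2 was 4.04 on array 4, against 2.51 to 2.76 on the others. Chance marks about 5% of such groups, which is close to this count.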

How the results depend on the processing

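Of the 18 members called, 5 (Ifi27, Ifitm3, Irf8, Oasl1 and Rsad2) stayed past the threshold in every one of the up to 16 other settings in which they were tested. The other 13 lost the call in at least 1 setting, and none of the 18 changed direction. The count of called members (17 higher, 1 lower) was 7 with arrays centred on their medians (5 higher, 2 lower) and 10 after a repeated quantile normalization (9 higher). It was 8 of 24 members tested without the lowest 40% of genes (33.3%, against 36.9% of the 13308 genes tested there). Of these, 7 were higher (29.2%, against 24.6% of genes). On the arrays with high Xist it was 11 (11 higher, 0 lower), or 17.5% against 15.0% of all genes. At an adjusted p under 0.01 the count was 6 of 63 members (6 higher, 0 lower), beside 2797 of 22180 genes. At 0.1 it was 27 of 63 members (26 higher), beside 7355 of 22180 genes. Leaving out 1 array at a time gave 9 to 18 members (8 to 17 higher, 0 or 1 lower). For all genes the count of 5486 ranged from 3265 to 5613 without 1 array (2246 to 3812 higher, 1019 to 1801 lower). It was 3337 on the arrays with high Xist (2231 higher) and 2797 at an adjusted p under 0.01 (1855 higher, 942 lower). Centring gave 1870 genes higher and 2769 lower, and quantile normalization 2440 and 2477. The median member difference of 0.34 (all genes 0.17) was 0.11 with centred arrays (all genes -0.06) and 0.18 after quantile normalization (all genes 0.02). The members' median thus lay above that of all genes by 0.17 as deposited and by 0.16 after quantile normalization. With centred arrays the gap of 0.17 is fixed by construction, since 1 constant per array is taken from every gene. Without the lowest 40% of genes the gap was 0.08 (0.28 over 24 members, 0.20 over all genes kept).

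Some differences that had not passed changed sign. Centring lowered the median of all genes by 0.23 and quantile normalization by 0.15, so that small positive differences turned negative by construction. Ifit1 was -0.20 with centred arrays, -0.17 after quantile normalization, -0.02 on the arrays with high Xist and -0.34 to 0.32 without 1 array. Irf3 was -0.17, -0.03 under the 2 scalings and -0.05 with the replicate block, and -0.10 to 0.16 without 1 array. Oas3 was -0.18, -0.12 under the 2 scalings, -0.02 on the arrays with high Xist and -0.10 to 0.14 without 1 array. Ifitm2 was -0.06 with centred arrays, -0.18 with the replicate block and -0.18 to 0.33 without 1 array. On the arrays with high Xist, Ifih1 was 0.02, Oasl2 0.07 and Stat2 0.07. Without 1 array, Gbp10 ranged from -0.59 to 0.12 and Stat2 from -0.33 to 0.13. Of the 23 members with no value of their own in the text, 12 changed sign and 4 were called in some setting.

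The replicate numbers were also fitted as a block, with array 4 labelled Gata6 KO in a block of its own. It called 5921 genes (3975 higher, 1946 lower) and 18 members, of which 15 were called without it. Ifi202b, Ifi214 and Ifitm1 lost the call under the block, and Gbp3, Ifi203-ps and Oas1g gained it. Deviations from the group means correlated at 0.10, 0.00 and 0.11 between arrays of the same number. Arrays 1 and 3 labelled Gata6 KO correlated best with the control array of their own number, and array 2 with control array 1 (0.07). The arrays numbered 3 also share the low Xist signals. The titles give only a number, and these values do not settle whether the arrays were paired. Low signals limit what can be seen for most members.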

Other observations

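Of the members, 2 had a second probe set of their own. The second probe set of Irf8 measured 2.43, 2.22, 2.43 and 1.82 on the arrays labelled Gata6 KO, against 1.46, 1.29 and 1.79 on the control arrays. The groups again did not overlap, but array 4 labelled Gata6 KO lay only slightly above control array 3. Array 4 was the lowest of its label here and the highest in the probe set used. For Ifi35 the probe sets differed. The one used here overlapped between the groups (3.89, 4.12, 3.88 and 3.73 on the arrays labelled Gata6 KO, 3.87, 3.66 and 3.32 on the control arrays), while the dimmer one did not (1.79, 2.26, 1.77 and 2.03 on the arrays labelled Gata6 KO, 1.01, 0.94 and 1.42 on the control arrays).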
